A study of Mus musculus with 117 samples.

Results

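The genes described here are those with which astrocytes clear amino acid transmitters and handle the products. They are Slc1a2 and Slc1a3 for glutamate, Slc6a11 for GABA, Slc6a9 for glycine, Slc7a10 for small neutral amino acids, Slc38a3 for glutamine and Glul, which makes glutamine from glutamate. They were taken by name from a list that was drawn up with earlier results of these data known. All 7 of 7 were found among the 27179 genes of each file. Their messenger RNA was followed in mouse spinal cord in 70 libraries from tagged astrocyte ribosomes (RiboTag) and 47 libraries from the flow-through of the same precipitations (Flow). RiboTag mice carry a ribosomal protein that gains a hemagglutinin tag in cells with Cre activity, so that an antibody to the tag collects the messages those cells are translating. All mice were C57BL/6. The injured ones were adults of 2 to 4 months at the time of a complete crush of the thoracic cord (SCI). The uninjured Aldh1l1 mice were young adults as well. The tissue block held the lesion core together with the border on both sides, and uninjured mice gave an equivalent piece of cord.

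Libraries of both kinds came from Aldh1l1-CreERT2 -RiboTag mice, in which tamoxifen switched on the tag in mature astrocytes. There were 4 uninjured mice, 5 mice at 2 d and 4 mice each at 5, 14, 28, 42 and 70 d after SCI. Their libraries were labelled female, with titles that name no male, except for the Flow library of replicate 4 at 5 d. That library is labelled male, while its RiboTag partner is labelled female. There were 4 further males each at 5 and 14 d, and no uninjured males of this line. The other line, 73.12 GFAP Cre -RiboTag (called mGfap here), is not timed by tamoxifen and tags every cell that has used the mouse Gfap promoter, so that its tagged cells may include relatives of astrocytes. It gave 5 females at 14 d after SCI and 5 uninjured mice at postnatal day 63 (P63, 3 male and 2 female), both with Flow libraries, and RiboTag libraries alone at P0 (4 mice, all male), P3 (3), P7 (3), P14 (5), P21 (4) and P35 (4). Each age from P3 to P35 held both sexes.

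Glutamate, GABA and glycine released at synapses are not broken down outside cells but are cleared by carriers, on astrocytes and on neurons, that use the sodium gradient. GLT-1 (Slc1a2) and GLAST (Slc1a3) take up glutamate, GAT-3 (Slc6a11) takes up GABA, and GlyT1 (Slc6a9) takes up glycine, which is a main inhibitory transmitter in the spinal cord. Asc-1 (Slc7a10) exchanges glycine, serine and other small neutral amino acids without sodium. Inside the astrocyte, glutamine synthetase (Glul) joins glutamate with ammonia, and SNAT3 (Slc38a3) lets the glutamine out for neurons to use again.

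The genes lie on 7 chromosomes of GRCm38, with Slc1a2 (gene 20511) at chr2:102658239-102790784, Slc1a3 (gene 20512) at chr15:8634124-8710807 and Slc6a11 (gene 243616) at chr6:114131241-114249886. Slc6a9 (gene 14664) lies at chr4:117835258-117869305, Slc7a10 (gene 53896) at chr7:35186095-35201116, Slc38a3 (gene 76257) at chr9:107651154-107668968 and Glul (gene 14645) at chr1:153899929-153909723. The sequence before the members' start sites was read from RefSeq for GRCm38.p6, and its part in the change after SCI was not tested. A window of 250 bases was found for 6 of the 7 members, 8 windows in all. The window of Slc1a2 lies before a start site inside the gene as bounded above, and that of Slc7a10 begins just inside it. The windows of 4 members are shown because these are the main glutamate carrier, the GABA carrier, the exchanger that was lowest against its uninjured level at 70 d and the enzyme. Capitals mark the motifs searched on both strands, which were the GC box (GGGCGG), the short NFI site (TTGGC), the AP-1 site (TGACTCA) and the STAT site (TTCNNNGAA). The CCAAT motif and the TATA motif (TATAAA) were searched as well.
Slc1a2 (chr2:102706188-102706437, + strand): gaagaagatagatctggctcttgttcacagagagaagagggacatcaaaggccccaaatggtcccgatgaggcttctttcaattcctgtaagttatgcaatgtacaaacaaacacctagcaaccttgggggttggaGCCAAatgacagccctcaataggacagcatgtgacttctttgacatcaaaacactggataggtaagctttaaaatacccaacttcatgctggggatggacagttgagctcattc
Slc6a11 (chr6:114130991-114131240, + strand): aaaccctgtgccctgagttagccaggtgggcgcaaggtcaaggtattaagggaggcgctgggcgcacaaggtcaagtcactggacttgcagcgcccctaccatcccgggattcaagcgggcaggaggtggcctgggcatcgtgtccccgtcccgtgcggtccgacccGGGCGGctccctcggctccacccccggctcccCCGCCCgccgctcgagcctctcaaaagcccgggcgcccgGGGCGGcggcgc
Slc7a10 (chr7:35186135-35186384, + strand): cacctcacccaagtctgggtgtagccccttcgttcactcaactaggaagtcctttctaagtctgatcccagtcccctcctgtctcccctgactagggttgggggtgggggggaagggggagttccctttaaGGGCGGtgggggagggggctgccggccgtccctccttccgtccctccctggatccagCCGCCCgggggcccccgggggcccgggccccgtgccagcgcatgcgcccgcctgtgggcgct
Glul (chr1:153899679-153899928, + strand): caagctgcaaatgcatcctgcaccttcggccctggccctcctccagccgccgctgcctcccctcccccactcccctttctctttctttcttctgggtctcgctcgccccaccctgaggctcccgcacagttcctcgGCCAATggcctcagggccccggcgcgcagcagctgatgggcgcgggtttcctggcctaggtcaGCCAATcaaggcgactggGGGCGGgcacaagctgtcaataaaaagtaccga
The Slc1a2 window held 44.8% G and C and 1 short NFI site, while the median over all 32851 mouse windows was 52.4% G and C. Slc6a11 (71.2% G and C) held 3 GC boxes and Slc7a10 (69.6%) held 2. In Glul (64.8%) there was 1 GC box, and the run GCCAAT, which holds a short NFI site and a CCAAT motif at once, occurred 2 times. None of the 8 windows held an AP-1 site, and Slc1a3 alone held a STAT site. Of all mouse windows, 32.7% held a GC box, 41.5% a short NFI site, 12.4% a TATA motif, 33.8% a CCAAT motif, 4.46% an AP-1 site and 7.02% a STAT site. None of the motifs searched was thus common to all members with a window. The reads were counted without strand, and protein-coding neighbours overlap Slc6a9 (Ccdc24, 51 bases) and Slc7a10 (Lrp3, 239 bases), so that reads there cannot be assigned with certainty. The same holds for noncoding genes that overlap Slc1a2, Slc6a11 and Glul.

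In uninjured Aldh1l1 mice the 7 genes together took 2.31% ± 0.21 (SD, n = 4) of all counts in RiboTag libraries and 0.194% ± 0.00331 in Flow libraries. Levels are given as CPM, the counts of a gene per 1e6 counts of the library total after scaling by TMM. Per kilobase of exon, the order was Glul (1611 CPM per kb), Slc6a11 (1188), Slc1a2 (1133), Slc6a9 (454), Slc7a10 (330.9), Slc1a3 (166) and Slc38a3 (91.7). Slc6a11 and Slc1a2 did not differ beyond their spread (SD 183.5 CPM per kb for Slc1a2), and the other neighbours lay farther apart. In uninjured cord the message of the GABA carrier was therefore close per length to that of the major glutamate carrier, while that of GLAST was far lower.

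After SCI all 7 members fell in Aldh1l1 astrocytes within 2 d, and 70 d later none had returned to its uninjured level. At 2 d the mean level was between 7.77% (Slc6a11) and 42.95% (Glul) of uninjured, and at 70 d between 14.5% (Slc7a10) and 60.7% (Slc1a3). The 7 genes took 0.580% ± 0.0367 (SD, n = 5) of all counts at 2 d, and in the 5 d group their share was 0.389% ± 0.0673 (SD, n = 4). By 70 d it was 0.762% ± 0.104 (SD, n = 4). By edgeR's quasi-likelihood test against uninjured mice, at a false discovery rate (FDR) under 0.01 over 18205 genes, 7 of 7 were lower at 2, 5, 14, 28 and 70 d and 6 of 7 at 42 d. Of all genes tested, the share called lower was, in the order of the 6 times, 29.9, 28.1, 22.8, 19.1, 20 and 21.5%. The median log2 fold change of the members was −2.43 at 2 d and −1.68 at 70 d, against −0.04 and 0.05 for all genes tested. The 6 time points share the same uninjured mice, so their values are given side by side and are not independent.

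**Figure D1:**
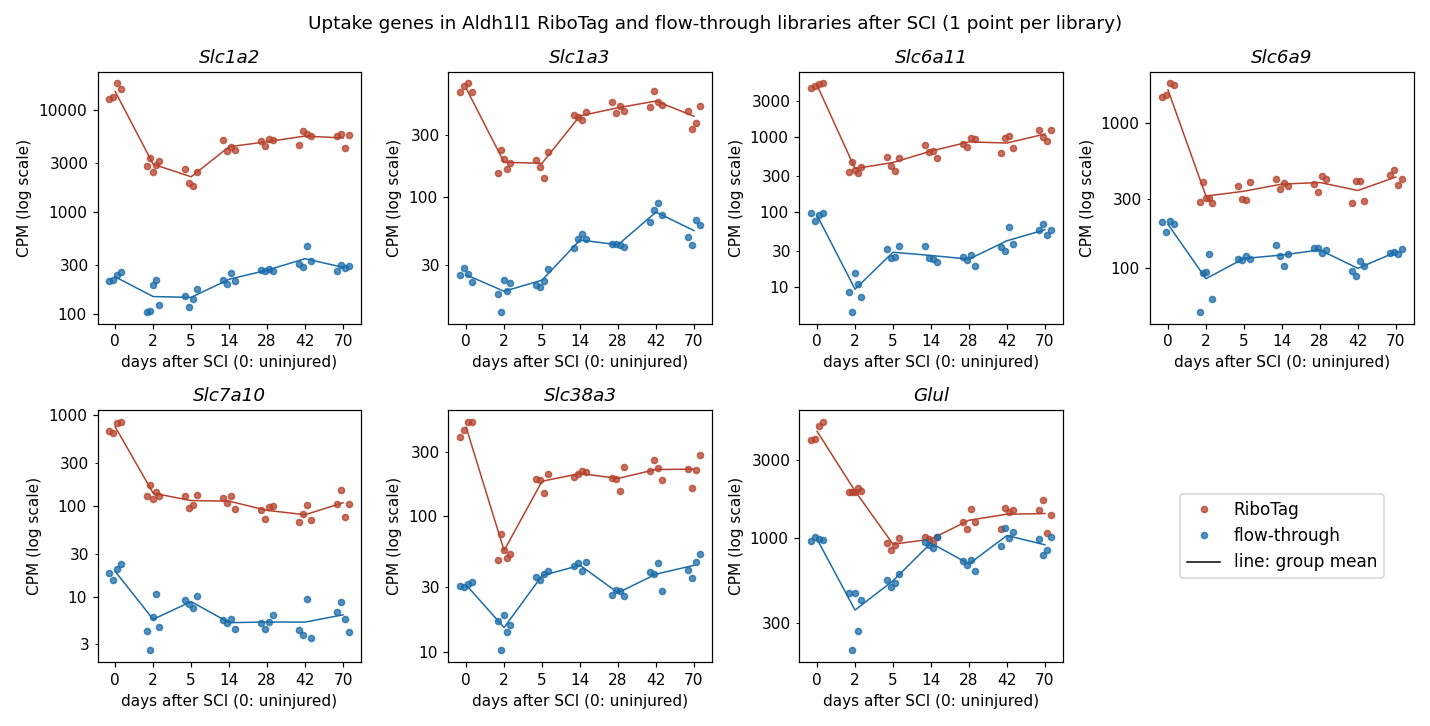
CPM (log axis) of each of the 7 genes in uninjured Aldh1l1 mice and at 2 to 70 d after SCI, in RiboTag and Flow libraries; points are single libraries and lines join group means. In RiboTag libraries each gene drops by 2 or 5 d, and Slc7a10 ends lowest against its uninjured level, at 14.5%, and Slc1a3 highest, at 60.7%.

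Libraries and cell types bear on these values as follows. Total counts were 67253656 to 128400518 in RiboTag and 40710428 to 136008399 in Flow libraries, and each member had at least 3366 counts in every RiboTag library and at least 109 in every Flow library. The summed level of 12 astrocyte markers that are no member (Aldh1l1, Aldoc, Aqp4 and others) was 35360 to 40970 CPM in uninjured RiboTag libraries. It was 9498 to 11000 CPM at 2 d, 9566 to 13780 CPM in the 5 d group and 23350 to 26750 CPM by 70 d. Of these markers, 10 of 12 were called lower at 2 d and 8 of 12 at 70 d, when 1 was higher. Over the same time 8 macrophage and pan-myeloid markers rose from 45.6 to 99.9 CPM in uninjured RiboTag libraries to 2377 to 4814 CPM at 2 d, 15650 to 20550 CPM at 5 d and 1312 to 4342 CPM at 70 d, with no marker at 0. The 10 neuron markers were at 522 to 629 CPM in uninjured and 209.6 to 322.8 CPM in 2 d RiboTag libraries. Fewer cells of a type and less RNA per cell cannot be told apart in such bulk samples, and the part of these shifts in the members' change was not tested.

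Slc1a2, the main glutamate carrier, was in uninjured RiboTag libraries at 12760.4, 13433, 18086 and 15922 CPM. At 2 d the 5 libraries were at 2782, 3359, 2474, 2882 and 3131 CPM and at 5 d the 4 libraries at 2612, 1922, 1813 and 2480.5 CPM, all far under the lowest uninjured value. At 70 d the values were 5549.6, 5772, 4219 and 5594 CPM. The level thus went from 19.4% of uninjured at 2 d to 14.7% by 5 d and back to 28.8% by 14 d, and it stood at 35.1% in the last group, with no overlap with uninjured libraries at any time. Of all genes tested, 58.7, 63.1, 55.0, 48.2, 44.9 and 45.3% had ranges without overlap at the 6 times in order. In edgeR's quasi-likelihood test, whose p-values were adjusted by the method of Benjamini and Hochberg throughout, the log2 fold change against uninjured was −2.36 ± 0.13 (SE, adjusted p = 2.0e-15) at 2 d. It was −2.80 ± 0.14 (SE, adjusted p = 7.8e-16) in the 5 d group and −1.51 ± 0.14 (SE, adjusted p = 3.5e-10) in the 70 d group.

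Slc1a3, the second glutamate carrier, was at 653, 721, 761 and 653 CPM in uninjured RiboTag libraries. At 2 d it was at 154.003, 232, 196, 164 and 183.5 CPM and at 5 d at 195, 171, 141 and 224 CPM. By 42 d it was at 498, 666, 542 and 512 CPM, where 1 of 4 libraries lay within the uninjured range. Slc1a3 came nearest to its uninjured level among the members, with a log2 fold change of −1.90 ± 0.13 (SE, adjusted p = 1.7e-13) at 2 d, −0.76 ± 0.14 (SE, adjusted p = 1.9e-05) at 14 d and −0.50 ± 0.13 (SE, adjusted p = 0.0025) at 28 d by edgeR's quasi-likelihood test. At 42 d the value was −0.32 ± 0.13 (SE, adjusted p = 0.049), which did not pass the threshold. At 70 d its libraries were at 468, 338, 377.9 and 508 CPM and the fold change was −0.71 ± 0.14 (SE, adjusted p = 5.4e-05). Leaving out replicate 2 at 28 d ended the call at that time (log2 fold change −0.455, edgeR adjusted p = 0.012), and so did scaling by total counts (−0.42, adjusted p = 0.026).

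The GABA carrier Slc6a11 showed the largest fall at 2 d. Its uninjured RiboTag libraries were at 4461, 4677, 5074 and 5113 CPM and those at 2 d at 335.4, 458, 361, 324 and 399 CPM, a mean of 7.77% of uninjured. The mean was 642 ± 107 CPM (SD, n = 4) at 14 d and 1082 ± 169 CPM (SD, n = 4) at 70 d, with single libraries of 1218, 1001, 882 and 1226 CPM. The highest injured library of these 6 groups was at 1226 CPM, and the lowest uninjured library at 4461 CPM. The log2 fold change was −3.68 ± 0.16 (SE, adjusted p = 1.3e-17) at 2 d and −2.15 ± 0.16 (SE, adjusted p = 1.2e-11) at 70 d by edgeR's quasi-likelihood test, so that the fall went from 12.8-fold to 4.45-fold.

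The glycine carrier Slc6a9 and the exchanger Slc7a10 fell and stayed low. Slc6a9 was at 1521, 1568, 1898 and 1846 CPM in uninjured RiboTag libraries, at 288, 393, 302, 304.002 and 282 CPM at 2 d and at 438.6, 478, 372 and 414 CPM at 70 d. Its mean moved only between 18.4% and 24.9% of uninjured over the 6 time points, with log2 fold changes of −2.44 ± 0.12 (SE, adjusted p = 1.9e-16) at 2 d and −2.0 ± 0.13 (SE, adjusted p = 3.8e-13) at 70 d by edgeR's quasi-likelihood test. Slc7a10 was at 676, 638, 830 and 857 CPM in uninjured and 128, 171, 121, 144.5 and 129.8 CPM in 2 d libraries. Its mean was lowest late in the time course, at 89.7 ± 12.9 CPM (SD, n = 4) at 28 d and 80.4 ± 17.2 CPM (SD, n = 4) at 42 d. At 70 d the libraries were at 105, 149, 76.3 and 105 CPM. Log2 fold changes of Slc7a10 were −2.43 ± 0.17 (SE, adjusted p = 5.0e-13) at 2 d, −3.21 ± 0.19 (SE, adjusted p = 9.3e-14) at 42 d and −2.78 ± 0.18 (SE, adjusted p = 1.4e-12) at 70 d by edgeR's quasi-likelihood test, and no step between neighbouring times passed the threshold for this gene.

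The glutamine carrier Slc38a3 and the enzyme Glul, which act one after the other in the release of glutamine, moved in opposite directions between 2 and 5 d. Slc38a3 was at 388, 438.4, 503 and 499 CPM in uninjured RiboTag libraries, 47.97, 73.7, 56.9, 48.9 and 52.6 CPM at 2 d and 189, 186, 149 and 206 CPM at 5 d. It was thus at 12.2% of uninjured at 2 d and 39.9% at 5 d, a log2 step of 1.67 ± 0.14 (SE, adjusted p = 8.3e-11) by edgeR's quasi-likelihood test, and no library of 1 time lay within the range of the other (47.2% of all genes had such ranges). Glul was at 3983, 4046, 4864 and 5193 CPM in uninjured libraries, 1921, 1910.1, 1912, 2032 and 1935 CPM at 2 d and 923, 836, 898 and 994 CPM at 5 d. Its level thus went from 42.95% to 20.2% of uninjured between these times, a log2 step of −1.12 ± 0.11 (SE, adjusted p = 1.6e-09) by edgeR's quasi-likelihood test. Against uninjured, Slc38a3 changed by −3.02 ± 0.15 (SE, adjusted p = 1.4e-16) at 2 d and −1.03 ± 0.15 (SE, adjusted p = 1.2e-06) at 70 d, and Glul by −1.21 ± 0.11 (SE, adjusted p = 5.1e-11) at 2 d, −2.26 ± 0.12 (SE, adjusted p = 2.8e-15) at 14 d and −1.68 ± 0.12 (SE, adjusted p = 1.8e-12) at 70 d (edgeR).

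**Figure D2:**
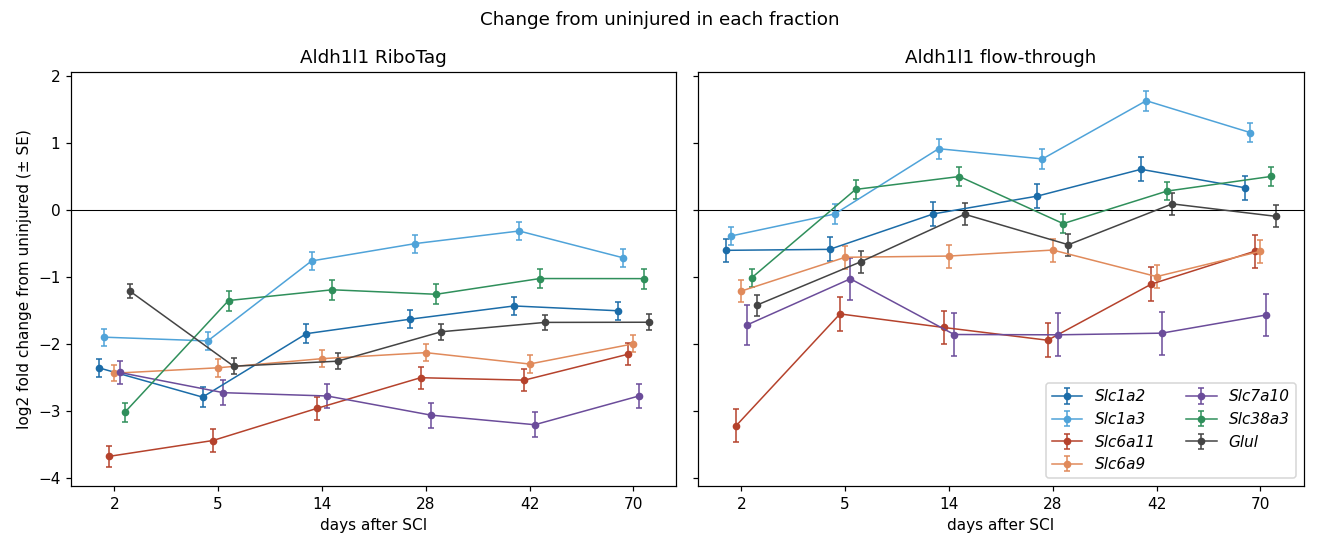
Log2 fold change against uninjured (bars show the standard error of edgeR's fit) of each gene at 2 to 70 d after SCI, for RiboTag and for Flow libraries of Aldh1l1 mice; the line at 0 is no change. All RiboTag values lie below 0, from −3.68 (Slc6a11 at 2 d) to −0.32 (Slc1a3 at 42 d), while Flow values of Slc1a3 lie above 0 from 14 d on.

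Between neighbouring time points, 6 of the 35 possible member steps passed the threshold. Besides those of Slc38a3 and Glul from 2 to 5 d, Slc1a2 fell further by 0.44 on the log2 scale from 2 to 5 d (edgeR adjusted p = 0.0053) and both glutamate carriers rose from 5 to 14 d, Slc1a2 by 0.95 ± 0.14 (SE, adjusted p = 2.8e-06) and Slc1a3 by 1.19 ± 0.14 (SE, adjusted p = 8.5e-08). Of all genes tested, 21.8% were called higher and 19.6% lower from 2 to 5 d, and 12.7% higher and 12.6% lower from 5 to 14 d. Glul rose from 14 to 28 d by 0.44 ± 0.11 (SE, adjusted p = 0.0087) by edgeR's quasi-likelihood test, a step in which 2.92% of all genes were called higher. No member changed past the threshold from 28 to 42 d (0 of 7 also at an unadjusted p under 0.05, while 1.67% of all genes were called either way) or from 42 to 70 d (4 of 7 at an unadjusted p under 0.05, 12.6% of all genes called). Of the 6 calls, 2 depended on single libraries, with adjusted p of 0.014 to 0.033 for the Slc1a2 step without 2 d replicate 2 or 5 or 5 d replicate 2 or 3, and 0.014 to 0.054 for the Glul step from 14 to 28 d without any of its 8 libraries but 28 d replicate 2. The latter step was also lost with RLE scaling (adjusted p = 0.012) and with total counts (adjusted p = 0.016, edgeR).

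The members' fall was also set against the summed counts of the 12 astrocyte markers, a scale chosen after the data were seen. Aldoc (34.2%) and Ndrg2 (29.3%) supplied most of that sum, and it fell after SCI itself, so that this ratio shows how the members changed relative to these markers and not their level. On this scale Slc6a11 was at 29.8% of its uninjured ratio at 2 d and 35.2% at 70 d, and Slc7a10 went from 71.1% at 2 d to 22.7% at 70 d. Slc6a9 went from 70.4% to 39.1% and Slc1a2 from 74.8% to 55.2%. Slc1a3 was at 101.9% at 2 d and 95.6% at 70 d, both with ranges that overlap the uninjured ones, but at 133.4% at 14 d and 128.4% at 42 d, without overlap. Glul was at 165.7% at 2 d and 48.8% at 70 d, and Slc38a3 at 46.9% at 2 d, 136.1% at 5 d and 77.65% at 70 d. The GABA carrier thus had the lowest ratio to these markers at 2 d, and Slc7a10 at 28, 42 and 70 d.

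**Figure D3:**
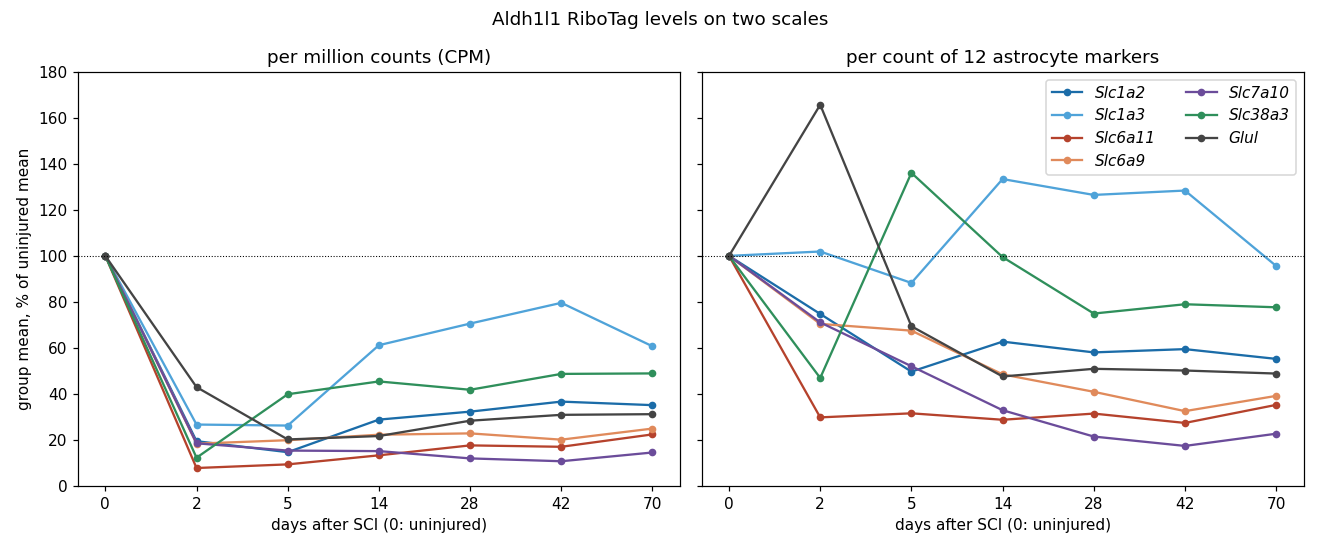
Mean level of each gene in Aldh1l1 RiboTag libraries as a percent of its uninjured level (100%), on the scale of CPM and on that of counts per 1000 counts of the 12 astrocyte markers, at 2 to 70 d after SCI. On the first scale all values lie under 100%, and on the second Slc1a3, Slc38a3 and Glul lie above 100% at 1 or more times.

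In the Flow libraries, which hold the RNA of other cells together with astrocyte RNA that was not captured, the members' levels were low and their changes mixed. At 2 d 6 of 7 were called lower (32.9% of 19207 genes were) and at 5 d 5 of 7 (21.8%). The remaining member at 2 d, Slc1a3 (−0.39 ± 0.14 SE, adjusted p = 0.013, edgeR), was called lower as well with DESeq2, RLE scaling, total counts, no filter or the replicate block (log2 −0.61 to −0.46, adjusted p = 4.6e-04 to 0.0038), and without uninjured replicate 4 or 2 d replicate 3 or 5 (adjusted p = 0.0046 to 0.009). From 14 d on some were higher. There were 2 higher and 3 lower members at 14 d (24.6% and 19.5% of all genes) and 1 and 4 at 28 d (26.4% and 22.6%). The 42 d group had 2 and 3 (25.3% and 19.2%), and the 70 d group 2 and 2 (21.8% and 15.7%). Slc1a3 was the member higher at all 4 late times. It was at 24.9, 27.99, 25.3 and 21.8 CPM in uninjured Flow libraries, 40.6, 47.1, 51.4 and 47.1 CPM at 14 d and 64.3, 79.7, 89.6 and 72.5 CPM at 42 d, with no overlap of either with uninjured, as for 62.6% and 56.5% of all genes. Its log2 fold change was 0.91 ± 0.15 (SE, adjusted p = 5.5e-06) at 14 d and 1.63 ± 0.15 (SE, adjusted p = 3.1e-10) at 42 d by edgeR's quasi-likelihood test. Slc7a10 was lower at all 6 times, with log2 fold changes from −1.87 at 28 d to −1.03 at 5 d, and so was Slc6a9, from −1.21 at 2 d to −0.60 at 28 d. Slc6a11 was at 89.7 CPM in uninjured, 9.36 CPM in 2 d and 57.7 CPM in 70 d Flow libraries, and its fall at 70 d (−0.62 ± 0.25 SE, adjusted p = 0.04, edgeR) did not pass the threshold, but did with these groups alone (adjusted p = 0.0015). Glul was lower at 2, 5 and 28 d, and its 70 d level of 905 ± 108 CPM (SD, n = 4) was close to the uninjured 982 ± 21.6 CPM (SD, n = 4). The count of these 30 calls was 24 to 31 with each library left out in turn. Each of the 8 libraries behind the Glul call at 28 d ended it when left out (adjusted p = 0.013 to 0.029, edgeR), as did the absence of a filter (adjusted p = 0.011). Slc1a2 was called lower at 2 and 5 d and higher at 42 d, and it lost these calls without Flow replicate 1 or 2 at 2 d, without uninjured replicate 3 or 4 or replicate 1, 2 or 3 at 5 d, and without uninjured replicate 1, 2 or 3 or replicate 3 at 42 d (adjusted p = 0.011 to 0.046, edgeR). The call at 42 d was also lost with DESeq2, RLE scaling, total counts and no filter (adjusted p = 0.013 to 0.026), and that at 2 d with these groups alone (adjusted p = 0.021). Slc38a3 was called higher at 14 and 70 d, and not without uninjured replicate 2 or replicate 2 or 4 at 14 d, nor without uninjured replicate 1 or 2 or replicate 3 or 4 at 70 d (adjusted p = 0.011 to 0.027, edgeR). Its call at 14 d was also lost with DESeq2, RLE scaling and total counts (adjusted p = 0.010 to 0.037), and that at 70 d with RLE scaling and total counts (adjusted p = 0.012 and 0.016). Slc6a9 at 28 and 70 d lost its call without uninjured replicate 1 or 3 or replicate 3 of either time, and Slc7a10 at 5 d without uninjured replicate 1, 3 or 4 or replicate 1, 2 or 3 (adjusted p = 0.010 to 0.021, edgeR). Neuron markers in Flow went from 8491 to 9798 CPM in uninjured to 452 to 1207 CPM in 2 d libraries, and their part in these values was not tested.

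The fall after SCI was deeper in RiboTag than in Flow libraries for most members. The difference of the log2 changes (RiboTag minus Flow) at 2 d was −1.82 ± 0.20 (SE, adjusted p = 2.1e-11) for Slc38a3, −1.56 ± 0.22 (SE, adjusted p = 2.4e-08) for Slc1a2, −1.32 ± 0.19 (SE, adjusted p = 4.1e-08) for Slc1a3 and −1.04 ± 0.20 (SE, adjusted p = 1.9e-05) for Slc6a9 in edgeR's interaction test. Of 19640 genes tested, 20.6% were called lower in this sense, and the median of all genes was 0.30. For Slc6a11 (−0.27 ± 0.29 SE, adjusted p = 0.43), Slc7a10 (−0.52 ± 0.34 SE, adjusted p = 0.18) and Glul (0.39 ± 0.19 SE, adjusted p = 0.072) the test was not passed, and these 3 had fallen in both kinds of library. With total counts Glul was called in the opposite direction to the other members (log2 0.66, adjusted p = 0.0049, edgeR). At 70 d 6 of 7 members were called, against 8.90% of all genes, with values from −1.81 (Slc1a3) to −1.33 (Slc6a9), and Slc7a10 just missed the threshold (−1.16 ± 0.36 SE, adjusted p = 0.011, edgeR). For Slc7a10 the test at 70 d was passed with the animal as a block (log2 −1.14, adjusted p = 0.0012), with DESeq2 (−1.12, adjusted p = 0.0097), with these groups alone (−1.32, adjusted p = 0.004), and without RiboTag replicate 2 (−1.34, adjusted p = 0.0046) or Flow replicate 4 at 70 d (−1.32, adjusted p = 0.0046, edgeR).

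In every group most members remained far higher in RiboTag than in Flow libraries. In uninjured Aldh1l1 mice the log2 ratio of RiboTag to Flow was 6.03 for Slc1a2, 5.76 for Slc6a11, 5.31 for Slc7a10, 4.82 for Slc1a3, 3.89 for Slc38a3, 3.11 for Slc6a9 and 2.22 for Glul. Standard errors were 0.10 to 0.16, and each adjusted p was 2.6e-09 or lower by edgeR's quasi-likelihood test. All 7 were at least 2-fold higher at FDR under 0.01, as were 18.9% of 17595 genes. At 2 d all 7 passed as well (19.7% of all genes), and from 5 to 70 d 6 of 7 (16, 15.4, 17.8, 13.1 and 13.7% of all genes at the 5 times in order). In mGfap mice all 7 passed at P63 (17.8%) and 6 at 14 d after SCI (15.6%). Glul was the exception in each case. In Aldh1l1 mice its log2 ratio at the 6 times in order was 2.41, 0.65, −0.0033, 0.88, 0.45 and 0.61. At 14 d Glul was at 1005, 985, 925 and 1006 CPM in RiboTag and 936, 899.9, 868 and 1006 CPM in Flow libraries, with overlapping ranges. The Glul message was thus about as abundant in Flow as in RiboTag libraries at that time. Oligodendrocyte markers in Flow at 14 d were at 22840 to 26430 CPM, and which cells supplied Glul there was not tested.

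**Figure D4:**
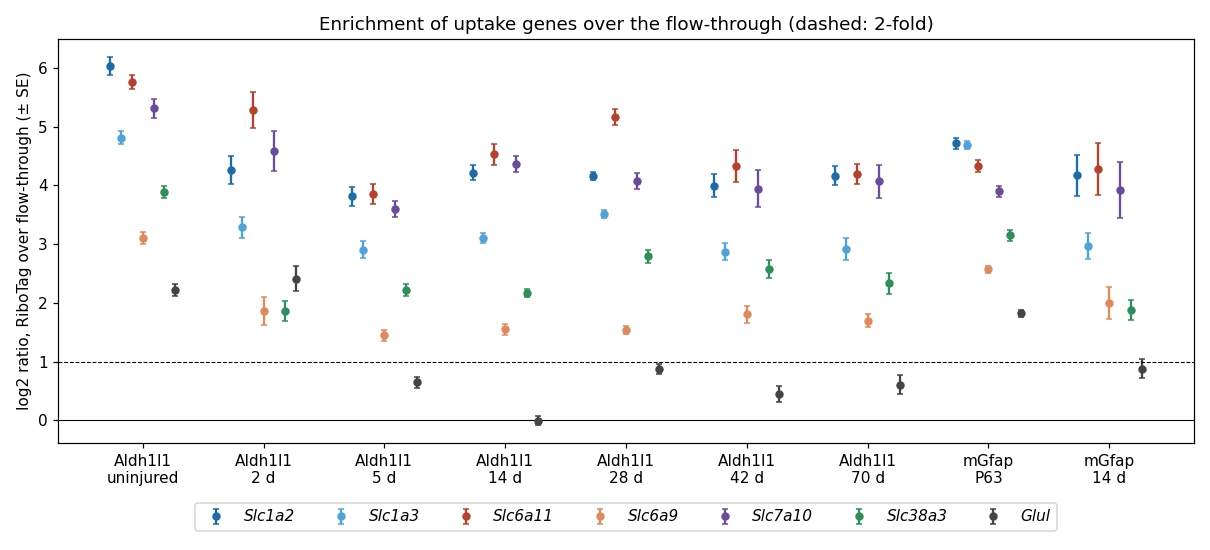
Log2 ratio of RiboTag to Flow (with the standard error of edgeR's fit) of each gene in 9 groups of mice; the dashed line marks a 2-fold ratio. Slc1a2, Slc6a11 and Slc7a10 stay at 3.60 or more in all groups, while Glul falls from 2.22 in uninjured to near 0 at 14 d in Aldh1l1 mice.

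Other genes of amino acid transport and metabolism moved in both directions. Lists of 83 genes were used, and 25 were called higher and 41 lower at 2 d, and 14 higher and 39 lower at 70 d. Of all genes tested, 30.2% were called higher and 29.9% lower at 2 d, and 23.9% and 21.5% at 70 d, and the counts of each list below are to be read against these shares. Receptors fell most uniformly, with 11 of 12 lower at both times. Grin2c, an NMDA receptor subunit, changed by −3.84 ± 0.19 (SE, adjusted p = 5.6e-16) on the log2 scale at 2 d, and Gabbr2, a GABA-B receptor subunit, by −3.62 ± 0.20 (SE, adjusted p = 1.7e-15) at 2 d and −3.69 at 70 d by edgeR's quasi-likelihood test. Of 8 genes of the sodium pump and bicarbonate cotransport, whose gradient the carriers use, 6 were lower and 1 higher at 2 d. Atp1b2, the pump's astrocyte beta subunit, fell from 17780 ± 2412 CPM (SD, n = 4) to 4407 ± 396 CPM (SD, n = 5) at 2 d, and at 70 d Fxyd1, a regulator of the pump, was higher by 1.91 ± 0.15 (SE, adjusted p = 1.9e-11, edgeR).

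Other carriers of the members' own families moved both ways. Of 9 SLC7 exchangers and their heavy chain, 7 were higher and 1 lower at 2 d, and 3 and 2 at 70 d. Slc7a8, an exchanger of large neutral amino acids, rose from 4.51 ± 0.894 CPM (SD, n = 4) to 109 ± 17.5 CPM (SD, n = 5) at 2 d and was at 42.9 ± 13.9 CPM at 70 d, log2 fold changes of 4.60 ± 0.22 (SE, adjusted p = 3.1e-16) and 3.25 ± 0.21 (SE, adjusted p = 1.0e-12) by edgeR's quasi-likelihood test. This was opposite to Slc7a10 of the same family. Of 9 other SLC6 carriers, 3 were higher and 4 lower at 2 d. Of 5 other SLC1 carriers, 1 was higher and 2 lower at both times, and the higher one was Slc1a5, a carrier of neutral amino acids, at 3.16 CPM in uninjured and 13.1 CPM in 70 d libraries. The call of Slc1a1, 1 of the lower ones, at 70 d was lost with total counts, with these groups alone and without any 1 of uninjured replicates 2 to 4 or 70 d replicates 1, 3 and 4 (adjusted p = 0.010 to 0.033, edgeR). Of 10 SLC38 and SLC43 carriers, 3 were higher and 1 lower at 2 d. The lower one, Slc38a1, a sodium-coupled glutamine carrier, fell from 667 ± 68.1 CPM (SD, n = 4) to 179 ± 15.3 CPM (SD, n = 5) and was above its uninjured level at 70 d, at 903 ± 161 CPM (SD, n = 4), a call that was lost with these groups alone (adjusted p = 0.018) and without 70 d replicate 1 (adjusted p = 0.014, edgeR). The call of Slc38a7 at 2 d, 1 of the 3 higher ones, was lost without uninjured replicate 2 or 2 d replicate 1 (adjusted p = 0.010 for both, edgeR).

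Among 19 genes of glutamate, glutamine and GABA metabolism, 8 were higher and 10 lower at 2 d, and 3 and 10 at 70 d. Asns, which makes asparagine from glutamine, rose by 2.89 ± 0.12 (SE, adjusted p = 4.6e-18) at 2 d, and Slc25a18, a glutamate carrier of mitochondria, fell by 2.43 on the log2 scale (edgeR adjusted p = 5.9e-16). Abat, which breaks down GABA, was lower by 1.61 ± 0.14 (SE, adjusted p = 1.8e-10) at 70 d by edgeR's quasi-likelihood test. Among 11 genes of serine and glycine metabolism, 6 were lower and 2 higher at 2 d and 7 lower and none higher at 70 d. The largest fall was that of Dao, the oxidase of D-serine and other D-amino acids, from 273 ± 62.3 CPM (SD, n = 4) to 3.82 ± 0.377 CPM (SD, n = 5) at 2 d, a log2 fold change of −6.15 ± 0.22 (SE, adjusted p = 8.3e-19) by edgeR's quasi-likelihood test, and Dao was at 105 ± 3.82 CPM (SD, n = 4) at 70 d.

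The fall was also present in the second line. In mGfap astrocytes at 14 d after SCI all 7 members were lower than at P63 by edgeR's quasi-likelihood test, against 15.9% of 18380 genes. The injured mGfap mice were all female, while the P63 mice were of both sexes. Log2 fold changes were −2.75 ± 0.29 (SE, adjusted p = 6.2e-09) for Slc6a11, −2.52 for Slc7a10, −1.91 for Slc1a2, −1.90 for Glul, −1.57 for Slc6a9, −1.47 for Slc1a3 and −1.01 ± 0.21 (SE, adjusted p = 1.8e-04) for Slc38a3. Slc1a2 was at 12761, 12236, 10725, 13017 and 13751 CPM at P63 and 3356, 5152, 2465, 1829 and 3817 CPM at 14 d, and Slc6a11 at 3326, 3205, 3084, 3214 and 3449.5 CPM and 454, 830, 342.8, 179 and 616 CPM. The 14 d and P63 ranges of no member overlapped (38.3% of all genes had such ranges). RiboTag libraries of the mGfap mice at 14 d held oligodendrocyte markers at 26570 to 39760 CPM, while those of Aldh1l1 mice held 2291 to 2982 CPM, and Schwann cell markers were at 2861 to 6206 CPM and 433 to 828.7 CPM. The part of these markers in the members' values was not tested. Per 1000 counts of the 12 astrocyte markers, Slc6a11 was at 31.9%, Slc7a10 at 36.5%, Slc1a2 at 58.4% and Slc38a3 at 111.1% of P63.

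The lines were compared with each other directly as well. Tamoxifen was given to the Aldh1l1 line alone, and by the study's account its uninjured mice were older than P63. Line, tamoxifen and age thus cannot be told apart in uninjured mice, nor can line and tamoxifen at 14 d. The uninjured Aldh1l1 mice were all labelled female, and the P63 mice were of both sexes. In uninjured mice, 1 of 7 members passed the test, with Slc38a3 lower in mGfap than in Aldh1l1 astrocytes, a log2 difference of −0.68 ± 0.15 (SE, adjusted p = 0.003) in edgeR's test, where 6.86% of 17848 genes were lower. This call was lost with labelled sex as a covariate (−0.61, adjusted p = 0.073), with total counts (−0.59, adjusted p = 0.011) and without Aldh1l1 uninjured replicate 3 or 4 (adjusted p = 0.021 and 0.022). At 14 d Glul was higher in mGfap astrocytes by 0.54 ± 0.12 (SE, adjusted p = 0.0011) (12.0% of all genes were higher), at 1046, 1518, 1468, 1221 and 1559 CPM in mGfap and 1005, 985, 925 and 1006 CPM in Aldh1l1 libraries, and this call was lost without Aldh1l1 replicate 3 (0.41, adjusted p = 0.027, edgeR) and with these groups alone (0.51, adjusted p = 0.011). With DESeq2, Slc1a3 (−0.59, adjusted p = 0.0039) and Slc38a3 (−0.52, adjusted p = 0.0051) were called lower in mGfap astrocytes at 14 d as well. No member had a different change after SCI in the lines by edgeR's interaction test (0 of 7, 3 of 7 at an unadjusted p under 0.05, and 12.7% of all genes called). The 3 were Slc6a9 (0.71 ± 0.25 SE, adjusted p = 0.05), Slc1a3 (−0.66 ± 0.24 SE, adjusted p = 0.055) and Glul (0.42 ± 0.16 SE, adjusted p = 0.071). Each passed it without 1 mGfap library at 14 d, Glul without replicate 1 (0.50, adjusted p = 0.0091), Slc1a3 without replicate 2 (−0.83, adjusted p = 0.0046) and Slc6a9 without replicate 4 (0.85, adjusted p = 0.0027, edgeR).

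With age, the members took different courses in mGfap astrocytes. From P0 to P63, 4 were called higher and 1 lower (25.3% and 24% of 18380 genes). The P0 mice were all male, while the P63 mice were of both sexes. Slc1a2 was at 2005, 2645, 780.2 and 2589.7 CPM at P0, 5720.4, 5243 and 5166 CPM at P7, 10015, 9349, 9063, 9638 and 9245 CPM at P14 and 12761, 12236, 10725, 13017 and 13751 CPM at P63, with no overlap between P0 and P63 (44.1% of all genes had such ranges). The log2 rise to P63 was 2.64 ± 0.28 (SE, adjusted p = 1.3e-09) by edgeR's quasi-likelihood test. Slc7a10 rose by 1.85 ± 0.33 (SE, adjusted p = 1.8e-05), Glul by 1.48 ± 0.21 (SE, adjusted p = 2.9e-07) and Slc6a9 by 1.31 ± 0.24 (SE, adjusted p = 1.8e-05) in the same test. Glul reached its P63 level late, at 2556, 3084, 3615 and 2944 CPM at P35 and 5232, 5194, 5044, 5179.5 and 4644 CPM at P63, but this step did not pass the threshold (0.73 ± 0.20 SE, adjusted p = 0.029, edgeR), while it did with DESeq2 (0.74, adjusted p = 0.0048) and with these groups alone (0.73, adjusted p = 0.0043).

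Per kilobase of exon, the glutamate carriers exchanged rank with age. Slc1a3, which is prominent in immature astrocytes, was at 1771, 1906, 649 and 1698 CPM at P0 and 1898, 1585 and 1325 CPM at P3, 645, 653, 444, 597 and 681 CPM at P14 and 678, 863, 792, 764 and 859.6 CPM at P63. It was lower at P63 than at P0, with a log2 fold change of −0.93 ± 0.24 (SE, adjusted p = 0.0013) by edgeR's test, with P0 replicate 3 below all P63 libraries and the other P0 libraries above them. Per kilobase, Slc1a3 was at 358 and Slc1a2 at 151 CPM per kb at P0, while at P63 they were at 188 and 941 CPM per kb. Slc6a11 was at 1298 to 4687 CPM at P0, 5199 to 5255 CPM at P7 and 3084 to 3449.5 CPM at P63, and neither Slc6a11 (−0.11 ± 0.29 SE, adjusted p = 0.76) nor Slc38a3 (0.55 ± 0.22 SE, adjusted p = 0.031) passed the test between P0 and P63 (edgeR). Of the 42 steps between neighbouring ages, in which 4.71, 1.97, 16.2, 21.3, 0.675 and 1.87% of all genes were called either way in order of age, 1 passed, the fall of Slc1a3 from P7 to P14 (−0.93 ± 0.26 SE, adjusted p = 0.0072, edgeR), where 7.02% of all genes were lower. It was lost without any 1 of the P7 libraries or of P14 replicates 1 to 4 (adjusted p = 0.011 to 0.036), and with labelled sex as a covariate (adjusted p = 0.012).

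The 12 astrocyte markers themselves were at 4222 to 11460 CPM at P0 and 33110 to 36290 CPM at P63, and the scale of these markers turned the direction of several members with age. Per 1000 marker counts, P0 stood at 743.2% of P63 for Slc1a3, 410.7% for Slc6a11, 266.1% for Slc38a3, 156.0% for Slc6a9 and 142.3% for Glul, none of them with ranges that overlap those of P63. Slc7a10 was at 105.2% with overlap. Of the 4 members called higher at P63, Slc1a2 alone was higher at P63 on this scale too, with P0 at 61.5% of P63 and without overlap. The part of the markers in the members' change with age was not tested.

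P0 replicate 3 and P35 replicate 1 stood apart from the other libraries of their ages and were the lowest there in every member. P0 replicate 3 had Slc1a2 at 780.2 CPM, where the others had 2005 to 2645 CPM, with astrocyte markers at 5215 and Schwann cell markers at 29132 CPM of the unscaled total (11552 to 13667 and 9658 to 16455 in the others). P35 replicate 1 had Slc1a2 at 7369 CPM (12042 to 15131 in the others), with neuron markers at 4110 CPM of the unscaled total (492 to 766). Without P0 replicate 3 the comparison of P63 with P0 still called 5 members.

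**Figure D5:**
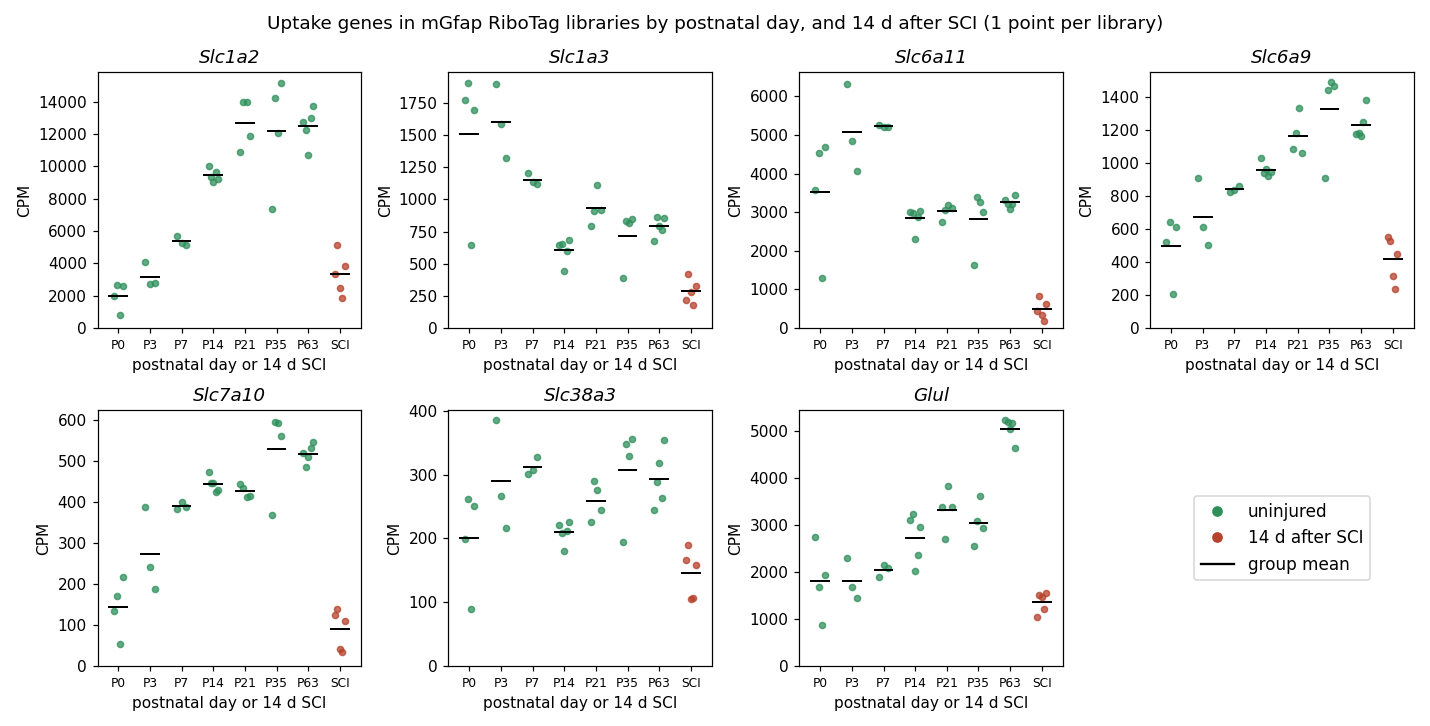
CPM (linear axis) of each gene in mGfap RiboTag libraries at P0 to P63 and at 14 d after SCI. Points are single libraries and short bars mark group means. Slc1a2 climbs from a mean of 2005 CPM at P0 to 12498 CPM at P63, Slc1a3 declines from 1506 to 791 CPM, and all 7 genes are lower at 14 d after SCI than at P63.

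RiboTag libraries of injured adult mGfap mice were also set against those of newborn ones. At 14 d after SCI, 2 of 7 members were lower than at P0 in the mGfap line (23.6% of all genes were), Slc6a11 with a log2 fold change of −2.86 ± 0.30 (SE, adjusted p = 2.0e-09) and Slc1a3 with −2.40 ± 0.25 (SE, adjusted p = 8.8e-10) by edgeR's quasi-likelihood test. Slc6a11 was at 454, 830, 342.8, 179 and 616 CPM at 14 d and 3562, 4533, 1298 and 4687 CPM at P0, without overlap (43.7% of all genes had such ranges). The other 5 had overlapping ranges, with log2 differences of 0.73 for Slc1a2, −0.25 for Slc6a9, −0.67 for Slc7a10, −0.46 for Slc38a3 and −0.41 for Glul. No member was called higher, against 27.5% of all genes, but Slc1a2 was with DESeq2 (0.73, adjusted p = 0.0059) and without mGfap 14 d replicate 3 (0.82, adjusted p = 0.0099) or 4 (0.88, adjusted p = 0.0033, edgeR). Without P0 replicate 3, Slc7a10 (−0.98, adjusted p = 0.0047), Slc38a3 (−0.73, adjusted p = 0.0011) and Glul (−0.67, adjusted p = 9.0e-04, edgeR) were lower as well, 5 of 7 in all. P0 mice were all male and the injured mGfap mice all female, so that sex, age and injury cannot be told apart in this pair. The P0 libraries also held Schwann cell markers, at 29132 CPM of the unscaled total in replicate 3 and 9658 to 16455 in the others. Their astrocyte markers were at 5215 CPM in replicate 3 and 11552 to 13667 in the others. The part of these other cells in the differences was not tested.

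Male and female Aldh1l1 astrocytes at 5 and 14 d did not differ detectably in these genes. In a fit over both times, 0 of 7 members passed edgeR's quasi-likelihood test, 0 of 7 had an unadjusted p under 0.05, and 9 of 17639 genes (0.0510%) were called. Log2 differences, male minus female, ran from −0.16 (standard error 0.09) for Slc38a3 to 0.06 (standard error 0.14) for Slc7a10. At 14 d Slc1a2 was at 6790, 4325, 4750 and 4282 CPM in males and 5081, 3958, 4275 and 4035 CPM in females, and at 5 d at 2216, 2486, 1307 and 1758 CPM in males and 2612, 1922, 1813 and 2480.5 CPM in females.

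Across the 70 RiboTag libraries, which share lines, ages and injury states, the members' log2 levels followed each other to different degrees. Pearson's r was highest for Slc6a9 and Slc7a10, the glycine carrier and the small neutral exchanger, at 0.954, and lowest for Slc38a3 and Glul at 0.418. Slc1a3 and Slc6a11 had an r of 0.898. Among 19403 genes, those most like each member were Gpr162 and Acvr1c for Slc1a2 (0.965 and 0.958), Nlgn1 and Astn1 for Slc1a3 (0.958 and 0.953), Glud1 and Kcnd2 for Slc6a11 (0.971 and 0.965) and Tlcd1 and Fads1 for Slc6a9 (0.975 and 0.964). For Slc7a10 they were Slc6a9 and Kcnc4 (0.954 and 0.951), for Slc38a3 Adhfe1 and Acsf2 (0.916 and 0.899) and for Glul Chn1 and Homer2 (0.926 and 0.919).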

How the data were processed

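Per the labels and methods, the authors trimmed paired-end poly-A reads (Trimmomatic), aligned them to mm10 (HISAT2) and deposited raw read counts per Entrez gene (featureCounts, default settings and so without strand) with tools on Galaxy. All files held 27179 genes, and 18 of them in another gene order were matched by identifier. Symbols came from RefSeq GRCm38.p6 (25275 genes) and GENCODE M21 (18), and 1886 genes had no name.

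Groups followed the labels. Counts were filtered (filterByExpr), scaled by TMM and tested with edgeR 4.0.16 (quasi-likelihood F test, robust, legacy) in R 4.3.3, with Benjamini-Hochberg adjustment over all genes tested and a call at FDR under 0.01, plus a 2-fold ratio for RiboTag against Flow. Replicate mice are separate animals where the labels say so, and otherwise p-values cover the spread between samples. DESeq2 1.42.0, other scalings, filters, blocks and each library left out were alternatives. The tests were checked on simulated counts in which a small share of genes was changed by known folds, up as often as down. In the data far more genes were called, so this check does not cover the scaling. Its share of false calls need not hold for the data. Of 2-fold changes, 61% were called at 2 d, 55.21% at 70 d, 62.89% for uninjured Aldh1l1 enrichment and 42.86% for mGfap 14 d against P63. Of 4-fold changes, it was 77.78, 84.69, 75.76 and 67.68% in the same order. False calls made up 0 to 2.16% of calls. For enrichment these shares were taken at FDR under 0.01 alone, without the 2-fold ratio. They are thus not the shares that the enrichment calls above would reach. The members, gene lists and markers were chosen with earlier results of these data known. Named pathway genes were up to 3 per list with the largest change past the threshold and no overlap, at 2 and 70 d. Members were likened to the 2 genes with the highest Pearson correlation of log2 CPM (prior count 2). RiboTag and Flow libraries of 1 animal were paired in a block as an alternative, and the correlation of their deviations from the group means had medians of 0.000861 to 0.348 over the 9 groups.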

Additional observations from a re-analysis of the deposited data

Results flagged for a closer look

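Each member was looked at in each group of 4 or 5 libraries. In 13 of these 182 sets, 1 library lay far from the others by Dixon's criterion, and chance gives about 1 in 20. Members of 1 group share its libraries, so that the sets are not independent. P35 replicate 1 did so for 4 members, with Slc1a3 at 386.1 CPM (the others 813.2 to 848), Slc6a9 at 909.2 CPM (1444 to 1490), Slc7a10 at 367.7 CPM (558.9 to 594.9) and Slc38a3 at 194.2 CPM (329.2 to 355.4). P0 replicate 3 had Slc1a3 at 648.5 CPM (1698 to 1906), and P14 replicate 3 had Slc6a11 at 2299 CPM (2888 to 3040). Among Aldh1l1 RiboTag libraries, Slc1a2 was at 4219 CPM in 70 d replicate 3 (5550 to 5772), Slc6a9 at 392.9 CPM in 2 d replicate 2 (282.5 to 304.002), Glul at 2032 CPM in 2 d replicate 4 (1910 to 1935) and Glul at 735.5 CPM in male 5 d replicate 3 (881 to 898.1). Among Flow libraries, Slc1a3 was at 57.67 CPM in male 14 d replicate 2 (44.06 to 45.1), Slc7a10 at 9.453 CPM in 42 d replicate 3 (3.485 to 4.262) and Slc6a9 at 197.1 CPM in mGfap P63 replicate 2 (203.8 to 206.5).

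The change after SCI differed between RiboTag and Flow libraries by edgeR's interaction test. The difference of log2 changes at 2 d was −1.565 for Slc1a2, −1.325 for Slc1a3, −1.038 for Slc6a9 and −1.825 for Slc38a3. At 70 d it was −1.782 for Slc1a2, −1.814 for Slc1a3, −1.486 for Slc6a11, −1.326 for Slc6a9, −1.467 for Slc38a3 and −1.527 for Glul.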

How the results depend on the processing

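Alternatives were FDR under 0.05, DESeq2, RLE scaling, total counts, filters, blocks, the groups of a contrast alone, labelled sex as a covariate and each library left out. Leave-one-out fits aside, 155 counts of called members stayed within 1.5 times the main count and 15 did not, and no called member changed sign in the tests. In uninjured mice of the 2 lines 1 member was called, 2 at FDR under 0.05, 0 with total counts, 4 with these groups alone and 0 with sex. At 14 d it was 1, against 3 at FDR under 0.05, 3 with DESeq2, 2 with the replicate block and 0 with these groups alone. A different change in the lines was called for 0 members, and for 1 at FDR under 0.05. Steps between ages gave 1 call, 5 at FDR under 0.05, 2 with DESeq2, 3 with total counts, 10 with these groups alone and 0 with sex. At 14 d after SCI against P0, 2 became 5 with total counts. The cause was not tested.

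With each library left out, the count was 6 to 7 at 28 d and 5 to 6 for the steps in time. It was 24 to 31 for Flow, 10 to 11 for the difference of RiboTag and Flow, 0 to 1 for the uninjured lines, 0 to 3 for the lines at 14 d, 0 to 1 for their difference, 0 to 1 for the steps in age and 2 to 5 for 14 d against P0. The zeros in the lines arose without Aldh1l1 uninjured replicate 3 or 4 and without Aldh1l1 14 d replicate 3, and the 3 without mGfap 14 d replicate 2.

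Replicate numbers did not pair the mice, with a median correlation of −0.00371 (−0.119 to 0.136) between same-numbered libraries of the time course. A replicate block by number left 7, 7, 7, 7, 6 and 7 members called at the 6 times and 4 in place of 6 steps. The steps of Slc1a2 from 2 to 5 d (adjusted p = 0.019) and Glul from 14 to 28 d (adjusted p = 0.015, edgeR) were lost.

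Per 1000 counts of 12 astrocyte markers, chosen after seeing the data, 9 levels of injured RiboTag groups were above their reference. Slc1a3 was at 101.9% (2 d), 133.4% (14 d), 120.6% (14 d males), 126.5% (28 d) and 128.4% (42 d), Glul at 165.7% (2 d), and Slc38a3 at 136.1% (5 d), 133.7% (5 d males) and 111.1% (mGfap, 14 d).

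Over all genes, FDR under 0.05 moved the calls from 1348 to 2795 (14 to 28 d), from 1.67% of genes to 1094 genes (28 to 42 d), from 2293 to 4288 (42 to 70 d), from 2213 to 3978 (uninjured lines) and from 2258 to 3882 (difference of lines). For the steps from P0 they went from 866 to 2098, 363 to 939 and 2984 to 4815, from 124 to 358 (P21 to P35) and from 1.87% of genes to 988 genes (P35 to P63). DESeq2 gave 688 (28 to 42 d), 1486, 771, 320 and 723 (from P0, P3, P21 and P35). With the groups alone it was 2 (28 to 42 d), 6.89% of the main count (42 to 70 d), 0, 1200, 5592, 6153 in place of 3919, and 27 (from P0, P3, P7, P14 and P21), and 6045 in place of 9398 (14 d against P0). For 28 to 42 d total counts gave 139 and the block 186. Sex gave 729 (uninjured lines), 1423 (difference) and 61.5% of the main count (P0 to P3), and 5 d alone 5 in place of 9. Enrichment at any fold gave 10920 for 7237 (uninjured), 11346 for 6203, 11079 for 6100, 11313 for 6514 and 8054 for 5032 (5, 14, 28 and 42 d) and 11618 for 7020 (P63).

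Total counts moved the median log2 of all genes by −0.582 to 0.272. The share of calls that were higher went from 50.2% to 61.5% (2 d), 52.6% to 42.1% (2 to 5 d), 39.5% to 29.2% (14 to 28 d), 53.5% to 72.6% (mGfap 14 d against P63), 44.6% to 59.1% and 51.3% to 66.6% (lines uninjured and at 14 d), 51.4% to 27.8% (P63 against P0), 53.9% to 39.4% (14 d against P0), and 67% to 53.4%, 67.5% to 29%, 56.8% to 20% and 23% to 8.79% (from P0, P3, P7 and P35). For enrichment it went from 43.5–48.1% to 23.4–33.7% in 7 groups. For the difference of lines DESeq2 gave 48.8% and RLE 49% in place of 60.9%, and DESeq2 56.4% from P0 to P3.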
